A study of Mus musculus with 16 samples.

Results

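The regions described here carried a called H3K4me3 peak in mouse embryonic stem cells (ESCs) grown with LIF, none in the same cells maintained by Myc, and no nearby Suz12. Overlapping H3K4me3 peaks of both cultures were joined into 36255 regions, of which 31019 had no Suz12 peak of either culture within 1000 bp. Among the 31019, 27181 carried a LIF-ESC peak. No Myc-ESC peak overlapped 6079 of them, or 22.4%, and these 6079 LIF-ESC-only regions are the subject of the account. They divide into 514 regions within 2500 bp of a curated transcription start site, 4.66% of the 11031 LIF-ESC regions of that kind, and 5565 distal regions, 34.5% of 16150. The regions were selected on the presence and absence of peaks in the H3K4me3 and Suz12 lists, so those shares, and the peak scores given below, describe the selection. H3K27me3, base sequence and gene lists were not used to choose them, and gene annotation served only to set start-site and distal regions apart. LIF-ESC-only means that no Myc-ESC peak was called, not that the mark was absent.

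All cells were R1 mouse ESCs of a clonal line that carried a fusion of a mutant Myc with the hormone-binding part of the estrogen receptor (MycER), which 4-hydroxytamoxifen (OHT) switches on. LIF-ESCs received LIF at 100 units per ml, while Myc-ESCs received 50 nM OHT and no LIF, and both were kept without feeders in medium with serum and vitamin C. The 16 libraries comprised 2 per culture and antibody and 4 inputs, but 1 peak list per culture and antibody stood behind every value, so no difference could be set against replicate error and no test was run. Because MycER and the removal of LIF always came together, the effects of gaining Myc activity and of losing LIF cannot be told apart.

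H3K4me3, trimethylation of lysine 4 of histone H3, is deposited mainly at promoters and is strongest over CpG-rich start sites, but it also occurs at a lower level over active distal elements such as enhancers. LIF is a cytokine that binds the receptor pair Lifr and gp130 and activates Janus kinases and the transcription factor Stat3. It thereby helps to maintain factors of the naive pluripotency network such as Klf4 and Tfcp2l1. Suz12 is a core subunit of Polycomb repressive complex 2, which places H3K27me3, and its exclusion sets the regions apart from bivalent promoters.

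The centre 300 bases of the regions were read from GRCm38, plus strand, to show what kind of DNA lost its called peak. The following windows come from the start-site regions of Emp1 and Fbxw10, and from the distal regions near Mras and Plekhg6. They have the highest scores of the genes marked in LIF-ESCs only and of the distal regions, once windows that overlap an exon are passed over. Another 4 come from the highest-scoring distal regions near the listed LIF and pluripotency genes Socs3, Klf2 and Tfcp2l1. The last sequences are the 250 bases before the start sites of Socs3 and Klf2, taken from RefSeq (GRCm38.p6) on the gene's strand, where both cultures kept H3K4me3. Capitals mark every CpG dinucleotide.
Emp1 start-site region, chr6:135363893-135364192: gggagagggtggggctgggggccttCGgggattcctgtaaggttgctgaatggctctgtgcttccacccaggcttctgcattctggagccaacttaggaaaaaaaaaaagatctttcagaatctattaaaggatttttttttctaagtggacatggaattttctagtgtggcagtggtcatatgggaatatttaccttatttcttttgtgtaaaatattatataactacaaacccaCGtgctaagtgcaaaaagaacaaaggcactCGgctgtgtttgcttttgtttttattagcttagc
Fbxw10 start-site region, chr11:62846395-62846694: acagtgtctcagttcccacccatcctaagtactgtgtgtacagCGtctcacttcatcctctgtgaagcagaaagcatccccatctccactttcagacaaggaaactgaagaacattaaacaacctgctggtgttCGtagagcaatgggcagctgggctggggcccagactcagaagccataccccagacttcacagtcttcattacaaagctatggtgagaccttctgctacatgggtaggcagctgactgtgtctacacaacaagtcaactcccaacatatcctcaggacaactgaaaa
Mras distal region, chr9:99420405-99420704: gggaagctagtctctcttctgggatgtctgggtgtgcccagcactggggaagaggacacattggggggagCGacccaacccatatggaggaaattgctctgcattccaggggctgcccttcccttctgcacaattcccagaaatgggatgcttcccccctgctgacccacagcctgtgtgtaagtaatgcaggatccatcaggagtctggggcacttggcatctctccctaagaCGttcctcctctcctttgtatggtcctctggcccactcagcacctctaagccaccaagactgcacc
Plekhg6 distal region, chr6:125410667-125410966: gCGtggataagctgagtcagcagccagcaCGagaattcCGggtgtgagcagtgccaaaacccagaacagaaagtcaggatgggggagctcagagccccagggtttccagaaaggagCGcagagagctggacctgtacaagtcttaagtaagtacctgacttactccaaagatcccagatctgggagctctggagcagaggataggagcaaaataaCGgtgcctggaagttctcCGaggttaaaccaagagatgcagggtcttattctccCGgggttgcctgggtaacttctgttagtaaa
Socs3 distal region, chr11:118009089-118009388: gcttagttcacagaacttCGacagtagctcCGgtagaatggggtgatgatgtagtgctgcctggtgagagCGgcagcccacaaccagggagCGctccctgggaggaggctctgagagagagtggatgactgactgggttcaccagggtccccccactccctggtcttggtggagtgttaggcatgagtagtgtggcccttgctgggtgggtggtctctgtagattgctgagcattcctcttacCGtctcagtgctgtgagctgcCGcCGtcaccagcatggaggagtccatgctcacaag
Socs3 distal region, chr11:117975693-117975992: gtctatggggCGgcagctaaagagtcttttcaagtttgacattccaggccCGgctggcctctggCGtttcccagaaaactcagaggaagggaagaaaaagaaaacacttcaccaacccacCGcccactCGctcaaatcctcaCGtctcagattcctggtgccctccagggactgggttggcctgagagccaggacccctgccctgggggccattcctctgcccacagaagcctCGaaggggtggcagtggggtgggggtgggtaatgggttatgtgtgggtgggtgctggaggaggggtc
Klf2 distal region, chr8:72271010-72271309: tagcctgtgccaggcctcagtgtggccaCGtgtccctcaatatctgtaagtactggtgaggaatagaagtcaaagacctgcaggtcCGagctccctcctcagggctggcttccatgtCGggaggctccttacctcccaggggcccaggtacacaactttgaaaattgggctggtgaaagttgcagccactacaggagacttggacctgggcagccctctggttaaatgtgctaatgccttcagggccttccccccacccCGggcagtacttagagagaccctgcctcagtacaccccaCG
Tfcp2l1 distal region, chr1:118648847-118649146: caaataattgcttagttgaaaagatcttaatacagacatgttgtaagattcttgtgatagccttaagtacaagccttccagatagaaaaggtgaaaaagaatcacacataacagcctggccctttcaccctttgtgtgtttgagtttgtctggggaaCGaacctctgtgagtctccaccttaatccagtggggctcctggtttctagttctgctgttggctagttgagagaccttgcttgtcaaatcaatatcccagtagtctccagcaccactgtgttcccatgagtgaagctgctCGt
Socs3 promoter, chr11:117969367-117969616, minus strand: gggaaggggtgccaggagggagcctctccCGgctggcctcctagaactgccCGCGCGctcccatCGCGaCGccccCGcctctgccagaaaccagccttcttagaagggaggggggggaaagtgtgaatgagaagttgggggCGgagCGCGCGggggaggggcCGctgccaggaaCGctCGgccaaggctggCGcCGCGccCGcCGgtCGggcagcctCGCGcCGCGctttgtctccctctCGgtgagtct
Klf2 promoter, chr8:72318812-72319061, plus strand: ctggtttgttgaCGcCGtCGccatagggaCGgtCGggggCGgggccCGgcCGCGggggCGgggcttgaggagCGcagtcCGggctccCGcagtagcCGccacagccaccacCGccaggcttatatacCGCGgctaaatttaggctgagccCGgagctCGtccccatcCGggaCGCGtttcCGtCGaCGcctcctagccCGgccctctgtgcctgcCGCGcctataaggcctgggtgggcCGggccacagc

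The contrast between these windows and the promoters is visible in the letters. It sets mostly distal sequence beside promoters, and no distal region of both cultures is shown. The comparison with such regions is given below. The distal windows near Socs3 held 7 CpG dinucleotides each, against 26 in the 250 bases before the Socs3 start site, and the window near Klf2 held 5 against 29. The windows at Emp1, Fbxw10, Mras and Tfcp2l1 held 2 or 3, and that at Plekhg6 held 7.

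A second set shows matches to motifs of Esrrb and of Stat factors, with 20 bases on either side and the match in capitals. It holds 4 of the highest-scoring distal regions with TCAAGGTCA, a binding sequence of Esrrb, on either strand, followed by the region near Fgf4, the one named region near a listed gene that held it. The last 4 are high-scoring distal regions with TTCCNGGAA, the Stat sequence. Some matches, such as those inside exons, were passed over, and the letters are those of the plus strand, so the Esrrb matches at Fbrsl1 and Rps27rt, on the minus strand, read as the reverse complement. Each is named by its nearest gene and was chosen after its values were seen. The letters do not show which matches lie in repeats of the reference. Of all 75 distal windows with the Esrrb sequence, 40 had a match wholly outside them.
Esrrb with Esrrb sequence, chr12:86504499-86504547: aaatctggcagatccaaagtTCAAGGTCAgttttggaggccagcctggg
Fbrsl1 with Esrrb sequence, chr5:110469719-110469767: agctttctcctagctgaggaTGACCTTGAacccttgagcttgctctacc
Nfe2l2 with Esrrb sequence, chr2:75697426-75697474: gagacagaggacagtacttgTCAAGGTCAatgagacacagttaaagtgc
Rps27rt with Esrrb sequence, chr9:115039068-115039116: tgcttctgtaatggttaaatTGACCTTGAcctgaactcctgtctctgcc
Fgf4 with Esrrb sequence, chr7:144867925-144867973: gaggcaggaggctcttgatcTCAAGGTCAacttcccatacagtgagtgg
Fasn with Stat sequence, chr11:120851825-120851873: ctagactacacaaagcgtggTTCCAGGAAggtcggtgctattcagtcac
Slc52a3 with Stat sequence, chr2:152012578-152012626: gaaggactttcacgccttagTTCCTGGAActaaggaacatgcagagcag
Grtp1 with Stat sequence, chr8:13195575-13195623: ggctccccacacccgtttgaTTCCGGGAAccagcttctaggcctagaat
Trim71 with Stat sequence, chr9:114539236-114539284: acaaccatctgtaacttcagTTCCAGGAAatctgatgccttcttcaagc

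Distal LIF-ESC-only regions lay around most of the naive and core pluripotency genes. Of the 20 genes of that list, all with LIF-ESC H3K4me3 at a start site, 12 had at least 1 such region within 50000 bp of a start site, 25 regions in all (95% Wilson interval of the share 38.7 to 78.1%). Over all 16275 genes with LIF-ESC H3K4me3 the share was 32.9%. Regions that both cultures marked, which are distal and free of Suz12 as well, lay within that reach of 12 of the 20 and of 42.1% of all genes, and Myc-ESC-only ones of 4 and of 17.7%. A gene list is a small number of genes with uneven surroundings, and the interval covers counting error only.

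Among the transcription factors of the network, Tfcp2l1 had 3 distal LIF-ESC-only regions, with scores of 55.4, 222 and 387. A gap of 129 bp separated the first from a shared region. The score is that of the peak caller MACS, read here as minus 10 times the log10 of the peak's p-value, the form that this version of MACS writes, since the lists do not define it. The lowest score in the lists was 50.0. The strongest of the 3 Tfcp2l1 regions, at chr1:118644793-118653199, ran over exons 3 and 4 and the adjoining introns of the gene. A further LIF-ESC-only region of score 206 lay 880 bp upstream of the start site, with a gap of 292 bp to a Myc-ESC peak. Tbx3, a T-box factor, had 3 regions of scores 377, 96.2 and 136 between 37591 and 49230 bp downstream of its nearest start site. Esrrb, an orphan nuclear receptor, had 3 in its first intron, of scores 70.1, 180 and 75.2. Another, of score 980 at chr12:86501690-86507097, lay 80045 bp from the nearest start site and held the Esrrb sequence shown above.

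The Krüppel-like factor gene Klf2 had 2 regions, of scores 508 and 112, at 46448 bp upstream and 13763 bp downstream, and Klf5 had 1 of score 159. Zfp42, which encodes the ESC marker Rex1, had regions of scores 356 and 146 upstream. The nearer, of score 356, lay at 3148 bp and only 46 bp from a shared region. Pou5f1, the gene of Oct4, had 2 of scores 234 and 92.7 at 18071 and 14080 bp upstream. Fgf4, the growth factor that ESCs secrete, had 3 downstream of it, of scores 111, 156 and 57.1. Those at Nr5a2 (67.3 and 61.4), Gbx2 (66.6 and 55.7), Dppa3 (53.8) and Sall4 (57.7) lay close to the lowest score called. At all 12 genes a Myc-ESC H3K4me3 peak was called within 2500 bp of a start site. Its score was lower than in LIF-ESCs at Esrrb (722 against 3100), Gbx2 (1146 against 3100), Tfcp2l1 (1259 against 3100), Tbx3 (1930 against 3100) and Nr5a2 (2032 against 3100). At Dppa3 it was higher (374 against 226), and at the others it was 3100 in both cultures. The value 3100 recurs at many start sites and may be a ceiling of the score, so differences from it are inexact. Scores of different lists are also not normalized for depth. Nanog, Klf4, Prdm14, Nr0b1, Tcl1, Sox2, Utf1 and Dppa5a had no distal LIF-ESC-only region within reach.

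**Figure D1:**
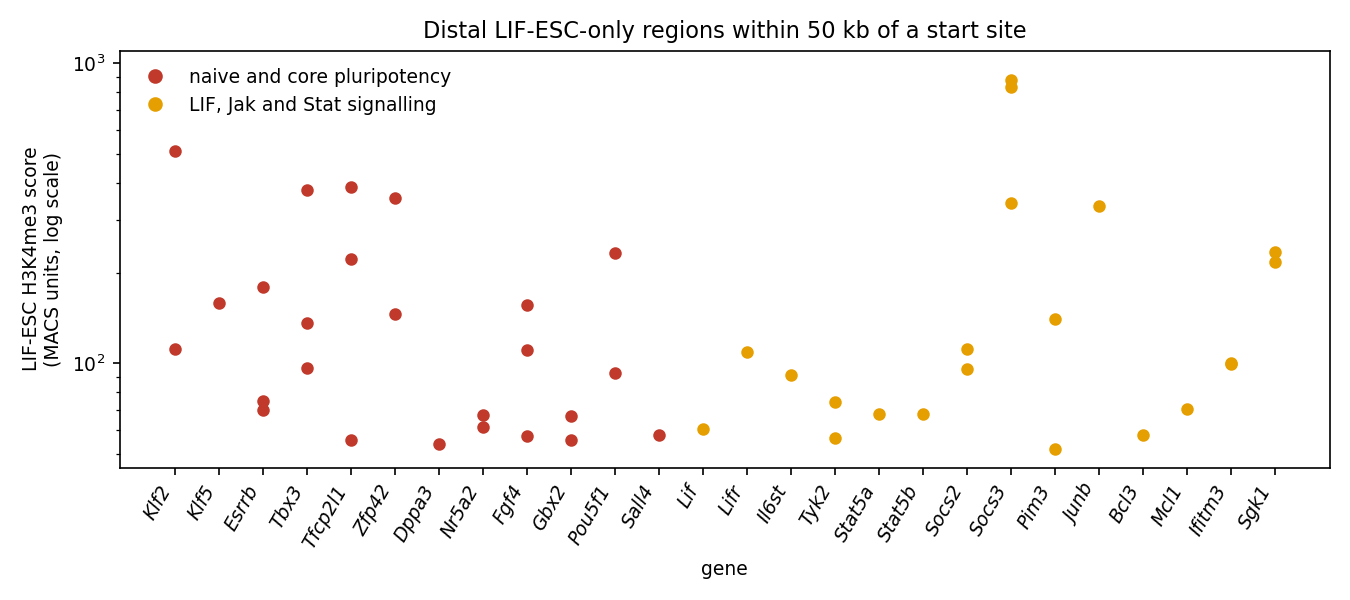
Score of each distal LIF-ESC-only H3K4me3 region (points, log axis, in MACS units) within 50000 bp of a start site, for the 12 pluripotency genes and 14 LIF, Jak and Stat genes that had any. Socs3 holds the highest points, at 833 and 878, and many others sit just above the lowest called score of 50.0.

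Genes of LIF, Jak and Stat signalling showed a like share, 14 of 22 (63.6%, 95% Wilson interval 43.0 to 80.3), against the same 32.9% over all genes. Shared distal regions lay within reach of 59.1% of this list and 42.1% of all genes, and Myc-ESC-only ones of 36.4% and 17.7%. The excess over all genes was thus not particular to LIF-ESC-only regions. Within the pathway, the ligand gene Lif had 1 LIF-ESC-only region of score 60.4, and Il6st, which encodes gp130, had 1 of score 91.6 at 46953 bp upstream. At Lifr, 3 regions followed each other inside the first intron. Their scores were 238 at chr15:7136034-7138588, 577 at chr15:7139982-7147663 and 109 at chr15:7149139-7151680. The first and second lay within 2500 bp of a later Lifr start site and count among the start-site regions. The peak over the first start site was shared and scored 3100, the recurring value, in both cultures. A gap of 138 bp separated it from the first of the regions.

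The feedback inhibitor Socs3 stood out in score, with distal regions of 833, 342 and 878. They lay 4307, 23094 and 37484 bp upstream, the farther ones within introns of the neighbouring gene Pgs1. A gap of 138 bp separated the second from a shared region. A start-site region of score 275 lay between the last of these. The peak over the Socs3 start site scored 3100, the recurring value, in LIF-ESCs and 1399 in Myc-ESCs. Socs2, of the same family, had regions of scores 112 and 96.1, and Socs1 and Cish had none.

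Of the kinases and transcription factors, Tyk2 had regions of scores 56.3, only 17 bp from a Myc-ESC peak, and 74.6. Stat5a and Stat5b shared 1 of score 67.7 within Stat5a, and Jak1, Jak2, Stat3, Pim1 and Ptpn11 had none. Junb, an AP-1 subunit and early target of LIF, had 1 of score 334 at 18130 bp upstream, which a gap of 246 bp separated from a Myc-ESC peak. Sgk1, a kinase gene, had 2 of scores 235 and 218. The remaining ones, at Pim3, Bcl3, Mcl1 and Ifitm3, scored between 51.7 and 141. As at the pluripotency genes, all 14 kept a Myc-ESC H3K4me3 peak at a start site.

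With LIF-ESC peaks of a score of at least 100 only, 8 of the 20 pluripotency genes and 6 of the 22 LIF, Jak and Stat genes (27.3%) still had a distal region within reach, against 19.4% over all genes.

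**Figure D2:**
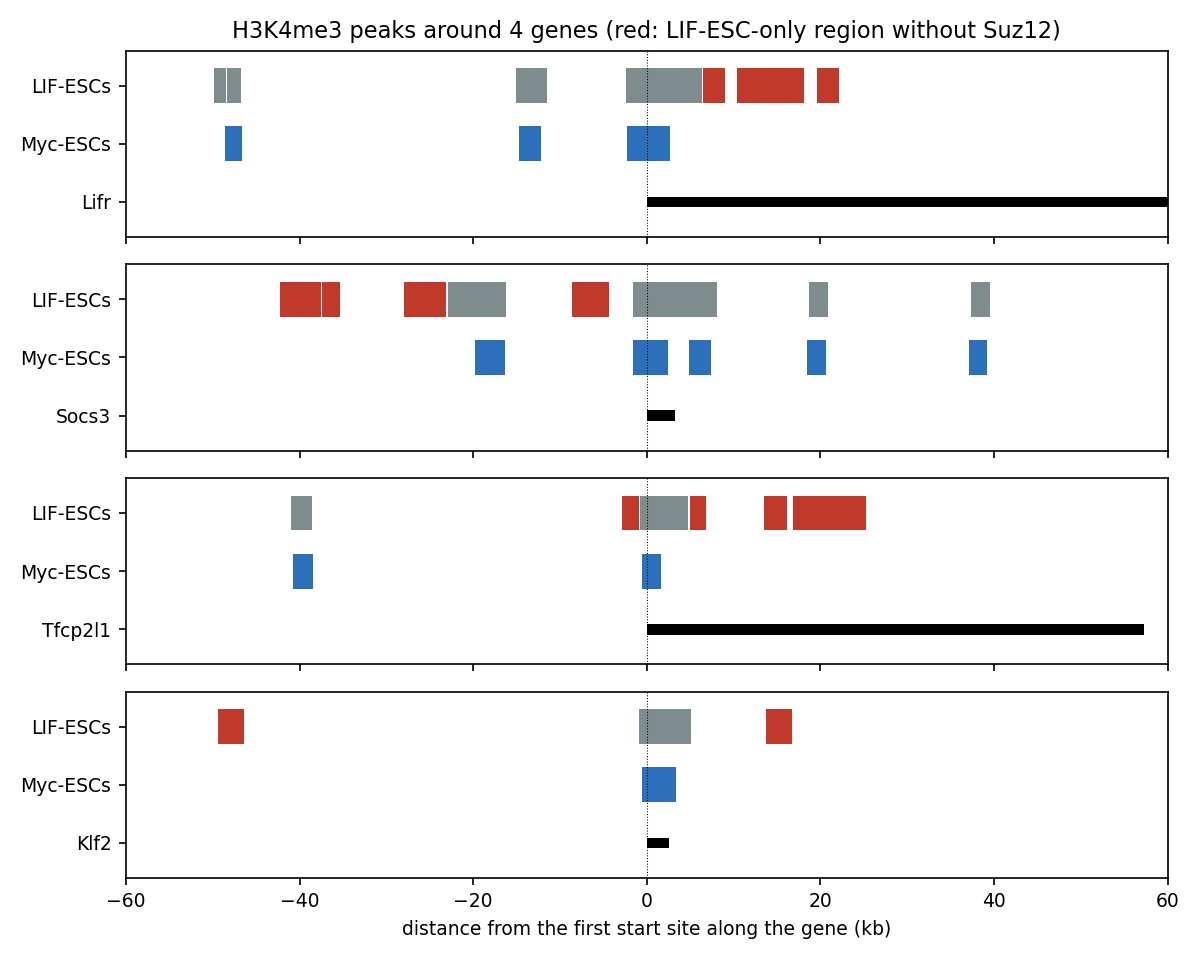
H3K4me3 peaks of both cultures within 60000 bp of the first start site of Lifr, Socs3, Tfcp2l1 and Klf2, chosen after their values were seen, with distance along the gene in kb and the gene body in black. LIF-ESC peaks in red are LIF-ESC-only regions without Suz12 (3, 4, 4 and 2 at the 4 genes) and grey ones are the other LIF-ESC peaks, while Myc-ESC peaks (3, 5, 2 and 1) are in blue and cover each start site.

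Without a score limit, other groups of genes lay nearer to the 32.9% of all genes or below it. Of the genes with LIF-ESC H3K4me3, a distal LIF-ESC-only region was within reach of 1 of 12 primed epiblast genes (Otx2), 1 of 13 endoderm genes (Sparc), 2 of 13 mesoderm and mesenchyme genes (Mesp1 and Fn1) and 3 of 9 trophoblast genes (Cdx2, Eomes and Tead4). The numbers were 2 of 6 for germline genes (Dppa2 and Dppa4), 3 of 7 for interferon response genes (Oas1a, Stat2 and Bst2), 6 of 26 for Wnt antagonists, receptors and targets and 5 of 14 for growth genes activated by Myc. No 2-cell-like gene had LIF-ESC H3K4me3 at a start site. For the primed epiblast genes the Myc-ESC-only regions were more frequent, with 7 of 12. In the longer lists of the study, the share ran from 27.7% for canonical Wnt genes to 48.2% for mTOR genes, with 41.7% (36.4 to 47.2) for 319 pluripotency genes, 40.9% (31.4 to 51.0) for 93 genes of the longer Jak-Stat list and 35.5% for 62 of the shorter. Myc-ESC-only regions were within reach of 23.5%, 25.8% and 32.3% of the pluripotency, longer and shorter Jak-Stat lists, against 17.7% of all genes.

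At start sites, LIF-ESC-only regions touched 516 genes, 3.17% of the 16275. Of these, 250 (48.4%) kept a Myc-ESC H3K4me3 peak within 2500 bp of one of their start sites, and 266 (1.63% of the 16275) were marked in LIF-ESCs only. Non-coding genes made up a large part of the 266. Long non-coding RNA genes were 30.1% (24.9 to 35.8) of them and 8.62% (8.20 to 9.06) of all genes with LIF-ESC H3K4me3, and protein-coding genes 57.1% and 87.6%.

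Among the 10 genes marked in LIF-ESCs only with the highest scores, Emp1, which encodes an epithelial membrane protein, scored 1531 over its first exon and intron at chr6:135362007-135366078, with the nearest Myc-ESC peak 10828 bp away. Fbxw10, an F-box protein gene, scored 1301, and the lysophosphatidic acid receptor gene Lpar5 scored 832. The others with a protein-coding annotation were AU018091 (892) and D630039A03Rik (834). Platr26, a long non-coding RNA named for its association with pluripotency, scored 1098 over its first exon. The non-coding 4930444M15Rik and 4930556N13Rik scored 1341 and 1124. The highest score of all, 2344, was that of the transcribed pseudogene Pisd-ps1, and another pseudogene, 2610005L07Rik, scored 973 over 24458 bp. Both resemble other loci, so the assignment of uniquely placed reads to them is uncertain.

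Listed genes with a LIF-ESC-only region at a start site were few. Tcl1, a co-activator of the kinase Akt that naive ESCs express, was the only one of the pluripotency list without any Myc-ESC peak at a start site. Its regions scored 405 over the start site, at chr12:105220616-105223539, and 132 just upstream, and the nearest Myc-ESC peak lay 109256 bp or more away. The meiosis genes Stra8 (360) and Hormad1 (60.5), the endoderm regulator Hnf4a (99.3, 2164 bp upstream) and Oas1a (192), an interferon-induced enzyme, were also marked in LIF-ESCs only. At Utf1 (118) and Sgk1 (101) the region lay 891 and 36 bp from a shared one, and the gene kept Myc-ESC H3K4me3.

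The distal regions with the highest scores lay in or near the following genes. The highest, 2133 at chr12:91645155-91649731, was within Ston2 with Gtf2a1, a subunit of TFIIA, as the nearest start site at 54668 bp. Next came 1895 within the first intron of the small GTPase gene Mras, 1731 upstream of Plekhg6, and 1527 over exon 2 and the adjoining introns of Kat6b, a histone acetyltransferase. Regions inside Sp3 (1426), Ildr1 (1419), Tet1 (1307), the gene of a methylcytosine dioxygenase, and Ncor1 (1303), a co-repressor, followed, with 1 near Mir1192 (1397) inside Klf9 and 1 upstream of Id1 (1287), an inhibitor of helix-loop-helix factors. These start-site neighbours all kept Myc-ESC H3K4me3. The region inside Tet1 lay only 23 bp from a shared region.

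Some distal regions came in runs. Of the 5565, 1401 (25.2%, 24.1 to 26.3) had another within 5000 bp, so neighbouring members are not independent. The same share was not counted for shared or Myc-ESC-only regions. The longest run held 8 regions over 38599 bp at Actn4 and Capn12, and runs of 6 lay at Rybp, a Polycomb repressive complex 1 component, and at Zfp423. Plekha7 had the most within 50000 bp of a start site, 11. These genes were named after their values were seen.

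The sequence of the distal regions differed from that of the other classes in CpG content. Of the centre windows, 3.52% (3.07 to 4.04) were CpG-rich, defined as a GC share of at least 50% and an observed to expected CpG ratio of at least 0.6. The share was 26.6% (25.8 to 27.5) in 10585 distal regions of both cultures and 13.3% (12.2 to 14.5) in 3357 Myc-ESC-only ones. The median ratio was 0.290 in LIF-ESC-only, 0.519 in shared and 0.420 in Myc-ESC-only windows, with GC medians of 49.0, 59.0 and 55.3%.

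Repeats moved with this difference. Bases marked as repeats in the reference (soft-masked) filled over 50% of the window in 15.1% of LIF-ESC-only, 51.6% of shared and 37.6% of Myc-ESC-only distal regions. In windows under 50% soft-masked, CpG-rich shares were 3.41% (2.93 to 3.97), 19.4% (18.3 to 20.5) and 13.1% (11.7 to 14.6), and with scores under 100 as well they were 4.39%, 17.2% and 11.5%. The share was thus lowest in LIF-ESC-only windows outside repeats and at low scores as well. The start-site regions shared it, with 4.67% (3.16 to 6.85) CpG-rich against 48.4% (47.5 to 49.4) of shared and 16.6% (13.6 to 20.2) of Myc-ESC-only start-site regions. At LIF-ESC scores under 100 it was 5.32% (3.20 to 8.74) against 20.1% (16.3 to 24.6) of shared ones.

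**Figure D3:**
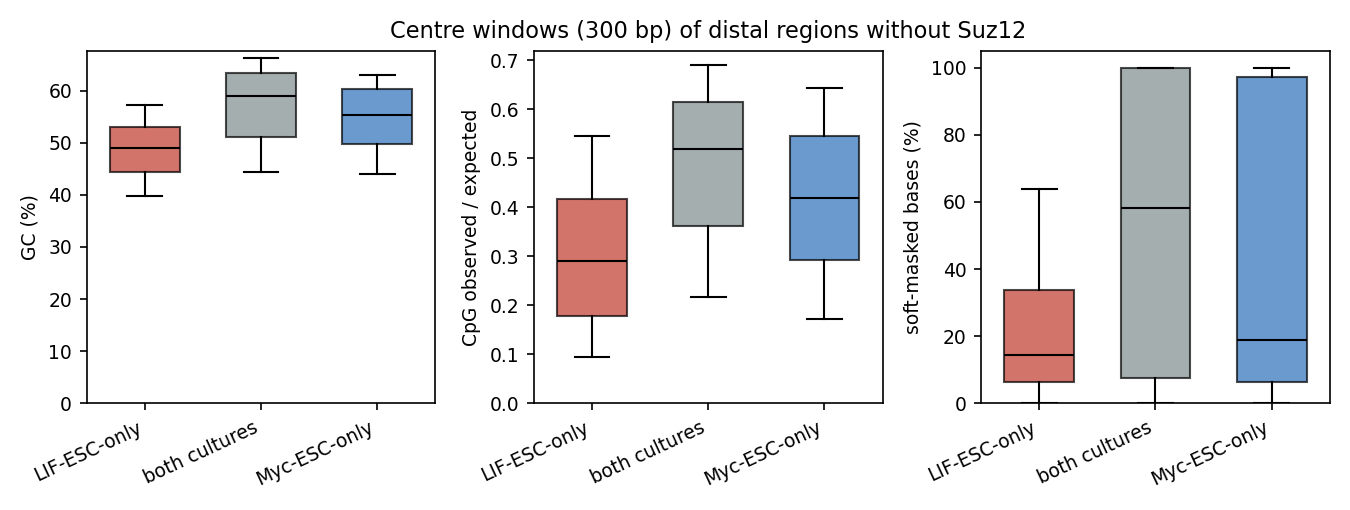
GC percentage, CpG observed to expected ratio and soft-masked percentage in the centre 300 bp of distal regions without Suz12, for LIF-ESC-only regions (n = 5565), regions of both cultures (n = 10585) and Myc-ESC-only regions (n = 3357). Lines are medians, boxes the 25th to 75th and whiskers the 10th to 90th percentiles. LIF-ESC-only windows have the lowest medians in all 3 panels (49.0%, 0.290 and 14.3%).

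The place of the distal regions in genes differed too. The centre lay in an intron in 59.5% (58.2 to 60.8) of LIF-ESC-only regions, against 29.9% of shared and 30.6% of Myc-ESC-only ones, and between genes in 35.1%, 63.2% and 58.1%. Within windows under 50% soft-masked the intron shares were 60.5% (59.1 to 61.8), 35.2% (33.9 to 36.5) and 35.7% (33.7 to 37.8). The distance to a start site behaved otherwise. Its median was 17529 bp for LIF-ESC-only regions and 37247 and 37938 bp for the others, but outside repeats the medians were 17471, 18646 and 23578 bp. LIF-ESC-only and shared regions were thus about equally near to genes outside repeats.

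Many of the regions adjoined H3K4me3 that was retained. Of the distal regions, 33.6% (32.4 to 34.9) lay within 5000 bp of a shared region, and 13.0% (11.9 to 14.1) of the Myc-ESC-only ones did. In windows under 50% soft-masked 376 of 2090 Myc-ESC-only (16.4 to 19.7%) and 33.5% (32.2 to 34.9) of LIF-ESC-only regions did, and at scores under 100 12.2% and 29.4%. At start sites the shares were 46.3% (42.0 to 50.6) and 27.9% (24.0 to 32.0). The rule fixes that members do not overlap a Myc-ESC peak, but not how far they lie from a shared region.

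Matches to transcription factor sequences were counted in the same windows on both strands, without a test. Esrrb matches occurred in 75 of the 5565 distal LIF-ESC-only windows (1.35%, 1.08 to 1.69), 0.387% (0.286 to 0.525) of shared and 0.477% (0.294 to 0.773) of Myc-ESC-only ones. The share was 0.703% over all 31019 regions and 0.424% over 32817 RefSeq promoters of the same length. Stat matches occurred in 1.37% (1.09 to 1.71), 0.586% (0.457 to 0.750) and 0.804% (0.553 to 1.17), with 0.948% over all regions and 1.15% over promoters.

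Repeats and base composition moved with these shares. In windows under 50% soft-masked the Esrrb shares were 1.31% (1.03 to 1.68), 0.625% (0.443 to 0.881) and 0.718% (0.435 to 1.18), and the Stat shares 1.36%, 1.04% and 1.00% with overlapping intervals. Matches free of soft-masked bases occurred in 0.719% (0.528 to 0.977) of distal LIF-ESC-only windows for Esrrb, or 40 of the 75. Among windows under 50% soft-masked and of 45 to 55% GC such matches occurred in 0.970% of LIF-ESC-only, 0.411% of shared and 0.330% of Myc-ESC-only windows, in 0.578%, 0.578% and 0.330% of those under 45%, and in 0.485%, 0.582% and 1.02% of those at 55% or more. The intervals overlapped in every band, though narrowly in the middle band. There they ran from 0.663 to 1.42% in LIF-ESC-only and from 0.216 to 0.779% in shared windows. Overlap does not show equal shares, and whether Esrrb matches differed within bands of base composition was not tested.

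Other sequences were searched in the same way. The shares over all regions include start-site regions and repeats. AP-1 (TGANTCA) was matched in 5.63% of all regions and 7.81% of promoters. In all distal windows it was matched in 8.70% (7.99 to 9.47) of LIF-ESC-only and 5.04% (4.63 to 5.47) of shared regions. In distal windows under 50% soft-masked these shares were 8.99% (8.21 to 9.84) and 7.45% (6.76 to 8.20). The E-box of Myc and Max (CACGTG), at 5.79% of regions and 7.15% of promoters, was matched in 5.16% and 5.36% of all distal windows. Under 50% soft-masked the shares were 4.85% (4.28 to 5.51) and 6.27% (5.64 to 6.97). Counting matches free of soft-masked bases in all distal windows gave 3.70% (3.24 to 4.23) of LIF-ESC-only and 2.85% (2.55 to 3.19) of shared regions. Of shared windows 51.6% were over 50% soft-masked, against 15.1% of LIF-ESC-only ones. That count thus leaves fewer bases to match in shared windows and is not a like comparison. For Klf (CCACCC; 28.1% of regions, 31.5% of promoters) the shares under 50% soft-masked were 28.3% (27.1 to 29.6) and 32.9% (31.7 to 34.2), but over all distal windows 26.5% (25.4 to 27.7) and 24.3% (23.4 to 25.1). For Ets (ACTTCCGG, 1.38% and 3.89%) the shares under 50% soft-masked were 0.657% and 1.43%, and for CTCF (CNAGGGGGC, 1.33% and 2.75%) 0.954% and 1.60%. Over all distal windows they were 0.593% and 0.737% for Ets and 0.863% and 0.850% for CTCF. CTCF matches free of soft-masked bases occurred in 0.755% and 0.737% of all distal windows, a count with the same limit as for the E-box. Within each of the 3 bands of GC content used for Esrrb, the intervals of LIF-ESC-only and shared windows overlapped for all 5 sequences. The part of repeats and GC content in these differences was not tested.

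For 4 others the intervals of LIF-ESC-only and shared regions overlapped in distal windows under 50% soft-masked, and whether the shares differed was not tested. Over all distal windows the intervals did not overlap. There the shares were 1.62% and 0.945% for the Oct4 octamer and 4.10% and 2.10% for Sox. For Gata they were 8.32% and 4.30%, and for Tcf 4.73% and 2.23%. The shares that follow are those under 50% soft-masked. The Oct4 octamer (ATTTGCAT, in 1.13% of regions and 1.74% of promoters) was matched in 1.80% of LIF-ESC-only and 1.74% of shared windows. Sox (CATTGTT, 2.50% and 3.78%) was matched in 4.24% and 3.54%. For the GATAAG sequence of Gata factors (5.45% and 7.45%) the shares were 8.59% and 7.62%, and for Tcf (CTTTGAT, 2.95% and 3.73%) 4.75% and 3.79%. The widest difference in all windows was that of YY1 (CGCCATNTT, in 10.2% of regions and 2.37% of promoters), with 1.13% of LIF-ESC-only, 23.2% of shared and 11.3% of Myc-ESC-only distal windows. Under 50% soft-masked these shares were 0.488%, 0.782% and 0.861%.

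**Figure D4:**
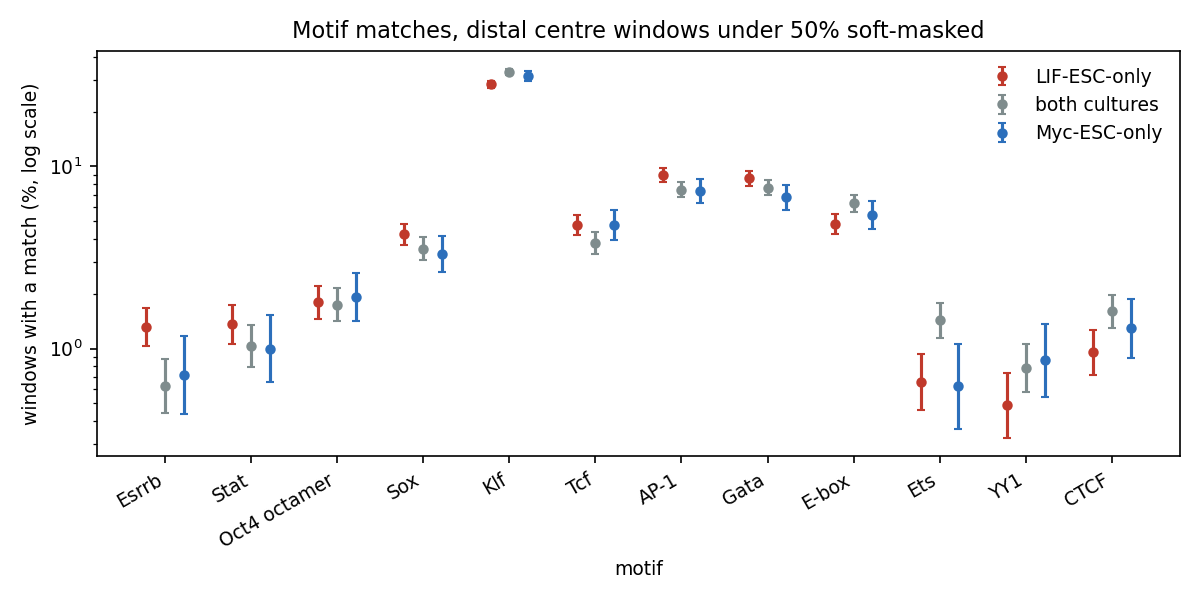
Share of distal centre windows under 50% soft-masked with a match to each of 12 sequences (log axis, in %), for LIF-ESC-only (n = 4717), shared (n = 5117) and Myc-ESC-only (n = 2090) regions, with 95% Wilson intervals. Esrrb matches reach 1.31% in LIF-ESC-only and 0.625% in shared windows with intervals that do not overlap, and those of Stat overlap.

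H3K27me3 was rare at the regions, as in all regions without Suz12. The rule had left out regions near Suz12, a subunit of the complex that places H3K27me3, so this rarity cannot be read apart from the selection. A LIF-ESC H3K27me3 peak lay within 1000 bp of 8 of the 6079 (0.132%, 0.0667 to 0.259) and a Myc-ESC one of 24 (0.395%, 0.265 to 0.587), against 0.458% and 1.33% of all 31019 regions. Distal and start-site regions differed in this. In Myc-ESCs, the culture where the called H3K4me3 was missing, 0.216% (0.123 to 0.377) of distal members and 1.10% (0.915 to 1.31) of distal shared regions had H3K27me3. At start sites it was 2.33% (1.34 to 4.04) of members and 2.06% (1.81 to 2.35) of shared regions, with intervals that overlap. The Myc-ESC H3K27me3 list is the longer, with 16717 peaks against 3120. With lists of equal length, 7 of 4911 members had LIF-ESC and 2 had Myc-ESC H3K27me3, so the counts give no order between the cultures. The highest H3K27me3 scores lay at the pseudogene 2610005L07Rik (781), Csnk1e (255), a casein kinase gene, and Unc13a (113), a gene of synaptic vesicle priming, in Myc-ESCs. Scn1a (108), a sodium channel gene, had the highest in LIF-ESCs, and Lyl1, the gene of a helix-loop-helix factor, had 95.2 in Myc-ESCs.

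The share of distal regions that were LIF-ESC-only ranged on the autosomes from 30.5% on chromosome 3 to 41.9% on chromosome 11. On chromosome X it was 12.3% (81 of 658, 10.0 to 15.0), against 35.6% (34.9 to 36.4) on the autosomes. In windows under 50% soft-masked the shares were 41.5% (33.4 to 50.1) and 48.1% (47.1 to 49.0), with intervals that overlap, and at LIF-ESC scores of at least 100 they were 7.46% (5.38 to 10.2) and 25.0% (24.2 to 25.9). This chromosome was picked out after its value was seen.

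The scores show how near to the calling limit the members lay. Median scores were 98.1 at start sites (lowest 50.3, highest 2344) and 92.0 in distal regions (50.0 to 2133), against 2291 and 179 in regions of both cultures, and 54.3% of the 6079 scored under 100. The LIF-ESC-only share of distal regions was 58.5% at scores of 50 to 75, and 3.87% at 1000 or more. At start sites it went from 47.5% to 0.0772%, or 6 of 7767. At the limits of the rule, 26 members had a Myc-ESC peak within 100 bp, the nearest at a gap of 2 bp, and 26 LIF-ESC peaks were left out by an overlap of under 100 bp, the smallest of 1 bp. A Myc-ESC peak lay within 1000 bp of 448 members, and 2966 had none within 10000 bp. For Suz12, the nearest peak kept was 1024 bp away and the farthest that excluded a region 716 bp. Of the 134 LIF-ESC-only regions set aside for Suz12, it overlapped 121.

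**Figure D5:**
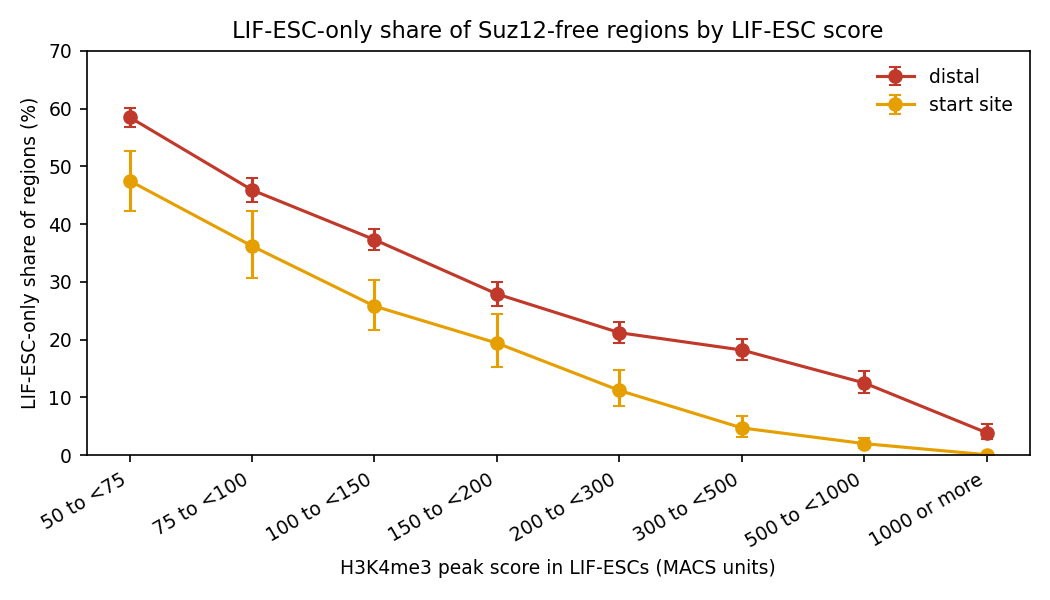
LIF-ESC-only share (%) of LIF-ESC H3K4me3 regions without Suz12 by their LIF-ESC score, for distal and start-site regions, with 95% Wilson intervals. The share is highest just above the calling limit (58.5% and 47.5%) and lowest at scores of 1000 or more (3.87% and 0.0772%).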

How the data were processed

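H3K4me3, H3K27me3 and Suz12 were profiled by ChIP-sequencing in LIF-ESCs and Myc-ESCs. Per the study's methods, the authors aligned HiSeq2000 reads to GRCm38/mm10 with Bowtie2 2.2.3, kept unique best-matching reads with few mismatches, and called peaks with MACS 1.4.2 at defaults. The authors deposited 6 lists (32469 and 30345 H3K4me3 peaks) with a score per peak, not normalized for depth. Whether libraries were pooled is not stated and depth is unknown.

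Intervals were compared with Python 3.11.15 and code tested on simulated data, where 0 of 2875 comparisons differed. Start sites came from 31647 curated RefSeq transcript starts of 26180 symbols. The sequence and motif shares carry 95% Wilson intervals, which cover counting error only. The members and gene lists were chosen with earlier results of these data known. Named were the 10 top-scoring genes marked in LIF-ESCs only, listed genes with a member at a start site, LIF and pluripotency genes with a distal member within 50000 bp, the genes nearest the 10 top-scoring distal members, and those nearest the 5 top H3K27me3 scores. Alternatives varied scores, list length, distances, windows and annotation. Study lists held only in part were not used.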

Additional observations from a re-analysis of the deposited data

How the results depend on the processing

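Each culture and antibody had 1 list, so no library could be left out, depth could not be assessed, and no paired analysis was possible because no value per library was at hand. Many members lay near the calling limit. With all lists at scores of at least 100, there were 4021 LIF-ESC-only regions, 3603 of them distal, 1283 members near a shared region, and 2 and 5 members with H3K27me3 in LIF-ESCs and Myc-ESCs. With that limit on the LIF-ESC H3K4me3 list alone, there were 2777 regions, 251 at start sites and 2526 distal, 133 genes marked in LIF-ESCs only, 1066 members near a shared region, 5 and 10 with H3K27me3, 2.30% CpG-rich distal members, and 6 LIF, Jak and Stat genes with a distal member. With lists of equal length, 7 members carried LIF-ESC and 2 Myc-ESC H3K27me3. Start-site regions numbered 333 and 1152 with windows of 1000 and 5000 bp and 1102 with all annotated transcripts, which gave 549 genes marked in LIF-ESCs only. In centre windows of 500 bp, 1.73% of distal members were CpG-rich and 2.46% held the Esrrb sequence. Counting only Esrrb matches free of soft-masked bases, chosen after seeing the data like the repeat limits, gave 0.719%. Of 73 values for these results, the other 51 stayed within 1.5 times the count or within the interval of the share.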
